A study of Mus musculus with 36 samples.

Results

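The genes described here are some of the ELR CXC chemokines, the ligands Cxcl1, Cxcl2, Cxcl3, Cxcl5 and Cxcl15, and their receptors Cxcr1 and Cxcr2. They are 7 of the 46078 genes in the deposited count table and were found by symbol and Ensembl identifier, and all 7 passed the filter on low counts that left 16903 genes for testing. The family was chosen by measured values of these libraries, namely the differences of Cxcl5 and Cxcl1 between ultrasmall sheets and dextrose at day 1 and of Cxcl5 between small sheets and dextrose at day 7. These values are therefore given as a description, and nothing is supported with them. Their p-values are not printed, though the text states whether they passed the threshold of the tests.

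ELR CXC chemokines are small secreted proteins named for a glutamate, leucine and arginine motif ahead of their paired cysteines, and they draw neutrophils out of the blood into tissue. They act through the G protein-coupled receptors CXCR1 and CXCR2, which neutrophils carry on their surface. In the lung, macrophages and epithelial cells release Cxcl1, Cxcl2, Cxcl3 and Cxcl5 within hours of an irritant or of bacterial products, largely through the transcription factor NF-kB, while Cxcl15, also called lungkine, is made by resting airway and alveolar epithelium.

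RNA was taken from lungs of female, wild type mice of the inbred strain C57BL/6 after a single intranasal dose. The mice received 50 μg of graphene oxide (GO), graphene carrying oxygen groups, in sheets marked US, S or L (ultrasmall, small or large in the study's naming), or the dextrose carrier without GO (0 μg, marked D). Tissue was collected 1, 7 or 28 days later, at ages of 9, 10 or 13 weeks respectively, and each of the 12 groups holds 3 libraries (n = 3 throughout). The question of the study was how the lung responds to sheets of different lateral size. No library is tied to an animal in the labels, so the tests measure the spread between these libraries, which may be technical. The large airways were cut away beforehand, and the rest of the tissue was sequenced whole, so fewer cells of a type and less RNA per cell cannot be told apart.

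The 36 libraries held 16154696 to 23808264 counts, apart from S day 7 replicate 2, which held 80566751, and levels are given as CPM, the count divided by the library total and scaled to a common total. The surfactant gene Sftpb, a marker of alveolar type 2 cells, lay between 2443 and 4206 CPM in all 36. Libraries that stood apart for these genes were US day 1 replicate 1, with a summed level of 18 neutrophil markers of 937.3 CPM against 331.3 to 710.9 CPM in the other 35, and S day 1 replicate 1 and L day 1 replicate 3, in which the inducible ligands were far lower than in the other libraries of their groups. Some values of members, and some medians of the neutrophil, NF-kB and inducing cytokine lists, are also given without 1 of them. The medians of the other lists are given only with all libraries.

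The 5 ligand genes lie within 146579 bases of chromosome 5 in the mouse build GRCm38 (chr5:90759360-90905938), all on the plus strand, in the order Cxcl5, Cxcl3, Cxcl15, Cxcl1 and Cxcl2, with the platelet chemokine genes Ppbp and Pf4 between Cxcl5 and Cxcl3. Cxcr2 (chr1:74153989-74161246, plus strand) and Cxcr1 (chr1:74191785-74194631, minus strand) lie 30538 bases apart on chromosome 1. Each span covers the exons and introns of the gene, and the spans in the deposited files equal those of the GENCODE annotation. Cxcl15 overlaps 1 other annotated gene, a microRNA gene on the opposite strand. Of the stretches of 50 bases in their transcripts, Cxcl2 shared 5.84% with Cxcl3 alone, Cxcl3 shared 4.29% with 78 genes, Cxcl2 among them, and Cxcr2 shared 6.68% with 220 genes, none of them a member. A small share of their reads could be split between such genes.

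Promoter sequences from RefSeq (build GRCm38.p6) were at hand for 6 of the 7 genes, all but Cxcl5. The windows of the 3 inducible ligands are shown because these genes were highest in the same libraries at day 1, and those of the receptors because the neighbouring receptor genes had different patterns. Each window runs from 150 to 31 bases before the annotated start, 5′ to 3′ on the gene's strand, in lower case, with any match to the NF-kB (kappaB) consensus in capitals.
Cxcl1 (plus strand, chr5:90891095-90891214): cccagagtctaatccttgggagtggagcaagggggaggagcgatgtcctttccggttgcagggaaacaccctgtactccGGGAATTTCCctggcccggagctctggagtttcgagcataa
Cxcl2 (plus strand, chr5:90903749-90903868): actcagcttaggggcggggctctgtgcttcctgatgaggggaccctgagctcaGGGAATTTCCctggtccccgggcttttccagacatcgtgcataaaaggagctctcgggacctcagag
Cxcl3 (plus strand, chr5:90785951-90786070): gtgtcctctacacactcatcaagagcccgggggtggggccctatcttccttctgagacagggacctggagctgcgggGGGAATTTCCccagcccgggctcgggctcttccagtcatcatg
Cxcr1 (minus strand, chr1:74194662-74194781): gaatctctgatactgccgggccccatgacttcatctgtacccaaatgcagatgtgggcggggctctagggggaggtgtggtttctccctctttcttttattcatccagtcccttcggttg
Cxcr2 (plus strand, chr1:74153844-74153963): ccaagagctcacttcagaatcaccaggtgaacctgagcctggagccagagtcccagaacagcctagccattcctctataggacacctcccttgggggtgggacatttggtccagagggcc

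The same 10 letters, GGGAATTTCC, stood on the plus strand 71 bases before the start of Cxcl1, 97 before that of Cxcl2 and 73 before that of Cxcl3. Both strands of 300 bases per promoter were searched, and no match to the consensus was found in the promoters of Cxcl15, Cxcr1 or Cxcr2. Among all 32851 promoters of the same length, 5.8% held a match to the consensus and 0.259% held its letters GGGAATTTC, which are the first letters of the matches shown. The motif was chosen after the sequences were seen, and a match is a description of the letters, not of a factor bound there.

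The ligands differed in level by orders of magnitude when scaled by length in TPM, the authors' deposited measure of transcript abundance per length. Cxcl15 had a median of 2006 TPM over the 36 libraries, against 1.24 TPM for Cxcl5, 1.09 TPM for Cxcl1, 0.732 TPM for Cxcl2 and 0.579 TPM for Cxcl3. The receptors lay between, with medians of 6.36 TPM for Cxcr2 and 4.80 TPM for Cxcr1. Cxcl15 was thus the only ligand measured at high depth (29428 to 162234 counts a library), while Cxcl1, Cxcl2 and Cxcl3 had medians of 13, 10 and 8 counts. Cxcl5 ranged most of the 6 genes that had counts in every library, 400.8-fold in CPM between its lowest library, which rested on 1 count, and its highest.

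**Figure D1:**
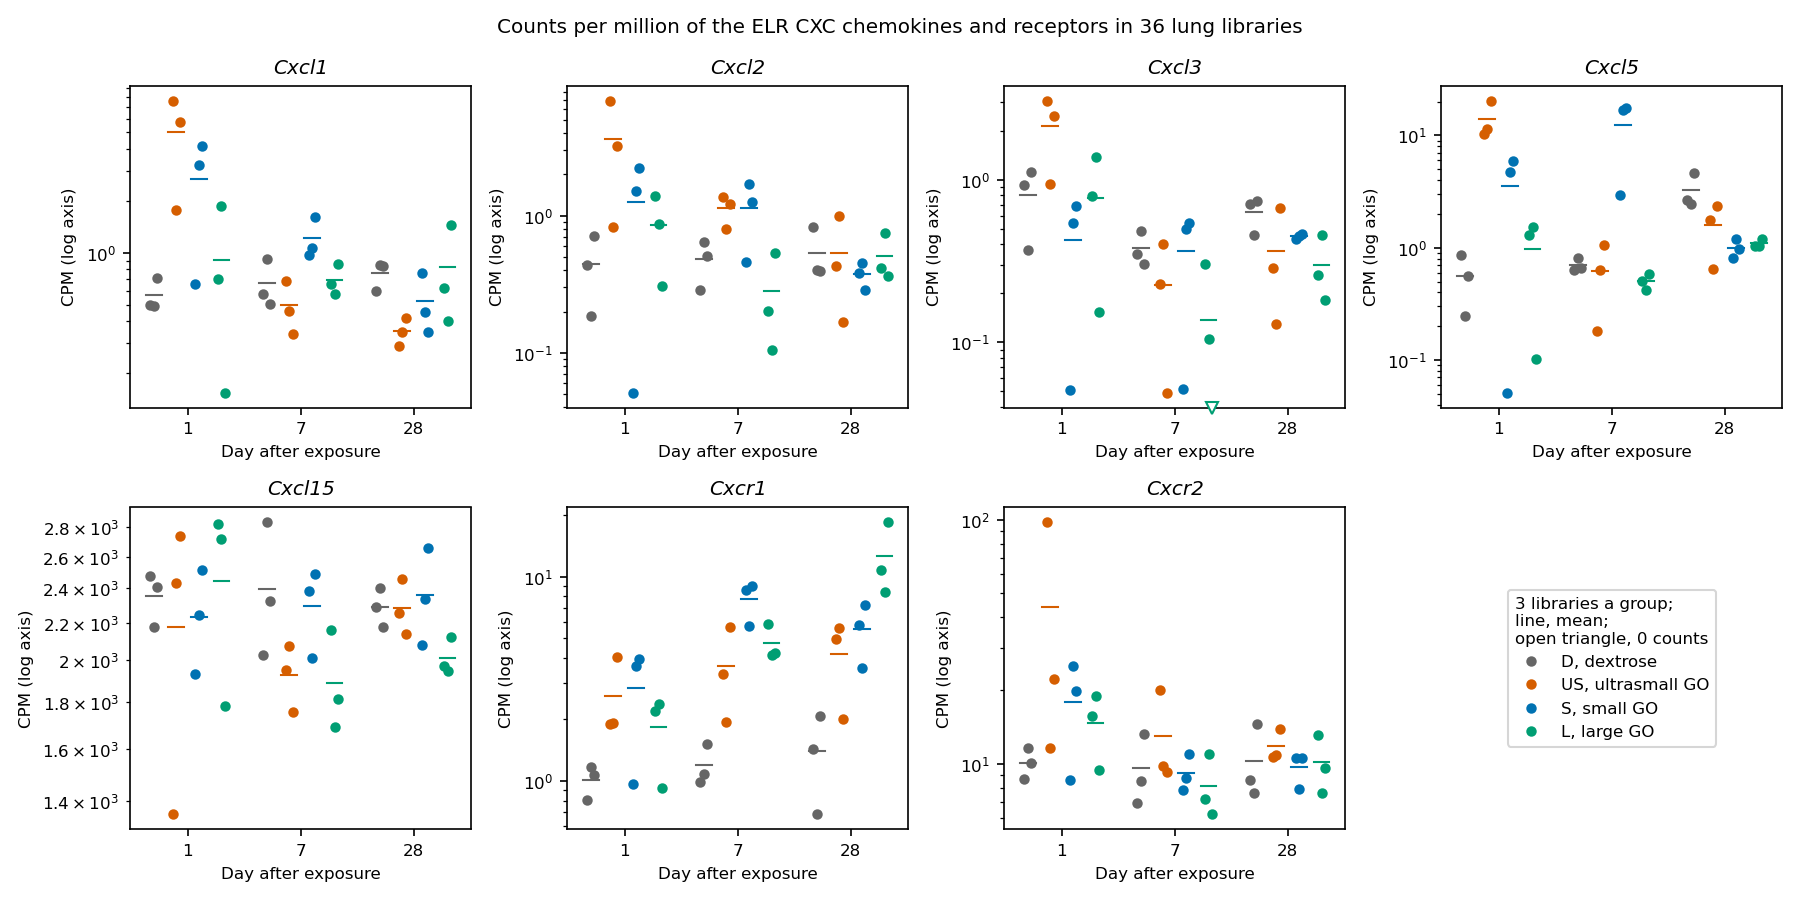
CPM (log axis) of the 7 genes in each library, by day after exposure and material, with 3 points and a line at the mean for each group. Cxcl1, Cxcl2 and Cxcl5 were highest in US at day 1, Cxcl5 was also high in S at day 7, and Cxcr1 reached 18.5 CPM in L at day 28; the open triangle marks the 1 library with 0 counts of Cxcl3.

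At day 1 Cxcl5 and Cxcl1 were higher after ultrasmall sheets. Cxcl5, a chemokine made mainly by epithelium in the lung, stood at 0.867, 0.246 and 0.561 CPM in the D libraries and at 10.3, 11.4 and 20.4 CPM in those of US. All 3 US libraries lay far above the D libraries, with a fitted log2 difference of 4.70 ± 0.80 (SE). Cxcl1, a neutrophil attractant of macrophages and epithelium, stood at 0.495, 0.491 and 0.714 CPM in D and at 7.64, 1.77 and 5.74 CPM in US, again without overlap, a log2 difference of 3.21 ± 0.60. Of all tested genes 5.72% had all 3 US libraries above all 3 D libraries. Both passed the threshold of 0.05 on p-values adjusted over all genes (edgeR's quasi-likelihood test with Benjamini-Hochberg adjustment). That made 2 of 7 members called in a comparison in which 0.0887% of all tested genes were called, and since these values chose the family, nothing is read from the count.

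The call of Cxcl5 was lost in fits without D replicate 1, 2 or 3, and that of Cxcl1 in fits without any 1 of the same D libraries or without US replicate 1, while the log2 differences stayed between 4.32 and 5.13 for Cxcl5 and between 2.75 and 3.62 for Cxcl1. Lymphocyte markers were tested in the same comparison. The summed level of 10 T and natural killer cell markers was 34.7 to 141.5 CPM in US, against 152.5 to 176.0 CPM in D, and their median log2 difference was -0.63, with 0 of 10 above 0. That of 6 B cell markers was 78.5 to 255.1 CPM against 233.9 to 308.3 CPM, with a median of -0.44 and 0 of 6 above 0. None of these markers passed in edgeR (4 and 2 at an unadjusted p under 0.05, 0 with DESeq2), and their part in the result was not tested.

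The other ligands were not part of that choice. Cxcl2, a product of activated macrophages and neutrophils, stood at 0.433, 0.184 and 0.714 CPM in D and at 6.90, 0.832 and 3.22 CPM in US at day 1. The groups did not overlap, but the US libraries were themselves spread over a wide range, and the log2 difference of 3.08 ± 0.75 missed the threshold (edgeR adjusted p = 0.0592). DESeq2 called 355 genes in this comparison, against 15 in edgeR. Among them were 4 of the 7 members, Cxcl1, Cxcl5, Cxcl2 (DESeq2 adjusted p = 0.0111) and the receptor Cxcr2 (DESeq2 adjusted p = 0.00667). The values of Cxcl1 and Cxcl5 chose the family, so nothing is read from that count. Without US replicate 2, the lowest of the 3, the edgeR adjusted p of Cxcl2 was 0.00682, and without US replicate 1 it was 0.544. Cxcl3, the closest relative of Cxcl2 in this cluster, had 0.929, 0.368 and 1.12 CPM in D and 3.04, 0.936 and 2.46 CPM in US. These groups overlapped, and the difference of 1.46 ± 0.61 did not pass (edgeR adjusted p = 0.234). Cxcl15 had 2477, 2176 and 2408 CPM in D against 1354, 2432 and 2738 CPM in US, and the lowest level of this gene in all 36 libraries was that of US replicate 1. Its log2 difference of -0.06 ± 0.18 did not pass (edgeR adjusted p = 0.903). Over the fits that left out 1 library this difference ran from -0.27 to 0.18, and its sign changed in 1 of them.

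Of the receptors at day 1, Cxcr2, the main chemokine receptor of mouse neutrophils, stood at 8.67, 11.7 and 10.1 CPM in D and at 98.0, 11.6 and 22.2 CPM in US. The log2 difference was 2.22 ± 0.50 (edgeR adjusted p = 0.0581) and was 0.79 ± 0.39 without US replicate 1 (edgeR adjusted p = 0.677), the library with the highest neutrophil marker sum. Without US replicate 2 or replicate 3, in contrast, Cxcr2 passed, with edgeR adjusted p-values of 0.00291 and 0.0252. US replicate 2 combined a Cxcr2 level within the D range with a Cxcl5 level of 11.4 CPM, so a high ligand and a receptor level like that of D occurred in the same library. Cxcr1 had 0.805, 1.17 and 1.07 CPM in D and 1.89, 1.92 and 4.03 CPM in US without overlap, but its difference of 1.42 ± 0.53 did not pass (edgeR adjusted p = 0.189).

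Small sheets gave a split picture at day 1. Cxcl5 stood at 0.051, 4.72 and 5.95 CPM in S, so that replicate 1, with 1 count, lay below every D library and the other two lay above them. Cxcl1 had 0.663, 3.25 and 4.15 CPM and Cxcl2 had 0.051, 1.52 and 2.23 CPM in the same libraries. Replicate 1 was the lowest of the 3 for all 7 genes. No member passed in edgeR among all 3 libraries (0 of 7, 3 at an unadjusted p under 0.05, and in DESeq2 0 of the 2 members it gave an adjusted p), where 0.0473% of all tested genes did. Of all tested genes 3555 had an unadjusted p under 0.05, and DESeq2 called 190 genes. Without S replicate 1, Cxcl1, Cxcl5 and Cxcr1 passed, with log2 differences of 2.73 ± 0.57, 3.30 ± 0.67 and 1.94 ± 0.51 and edgeR adjusted p-values of 0.0148, 0.0138 and 0.0388. The neutrophil marker sum in that library was 331.3 CPM, against 398.3 to 476.4 CPM in D, and its part in the result was not tested. Cxcl3 was at 0.051, 0.542 and 0.691 CPM in S and its difference from D was -0.89 ± 0.72 (edgeR adjusted p = 0.464), so its sign was opposite to that of Cxcl1, Cxcl2 and Cxcl5.

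After large sheets, Cxcl5 stood at 1.31, 1.52 and 0.102 CPM at day 1 and Cxcl1 at 0.701, 1.88 and 0.154 CPM. Replicate 3 was again the lowest library for both, and both groups overlapped with D. None of the 7 members passed in edgeR (0 of 7, 0 at an unadjusted p under 0.05, 0 of 7 with DESeq2), where 0.0237% of all tested genes did, and the differences ran from -0.04 for Cxcl3 to 0.96 for Cxcl2. Without L replicate 3 none passed either, and those of Cxcl1, Cxcl5 and Cxcr1 became 1.17, 1.35 and 1.19. In the fit of all libraries 835 of the tested genes had an unadjusted p under 0.05, and DESeq2 called 26 genes.

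**Figure D2:**
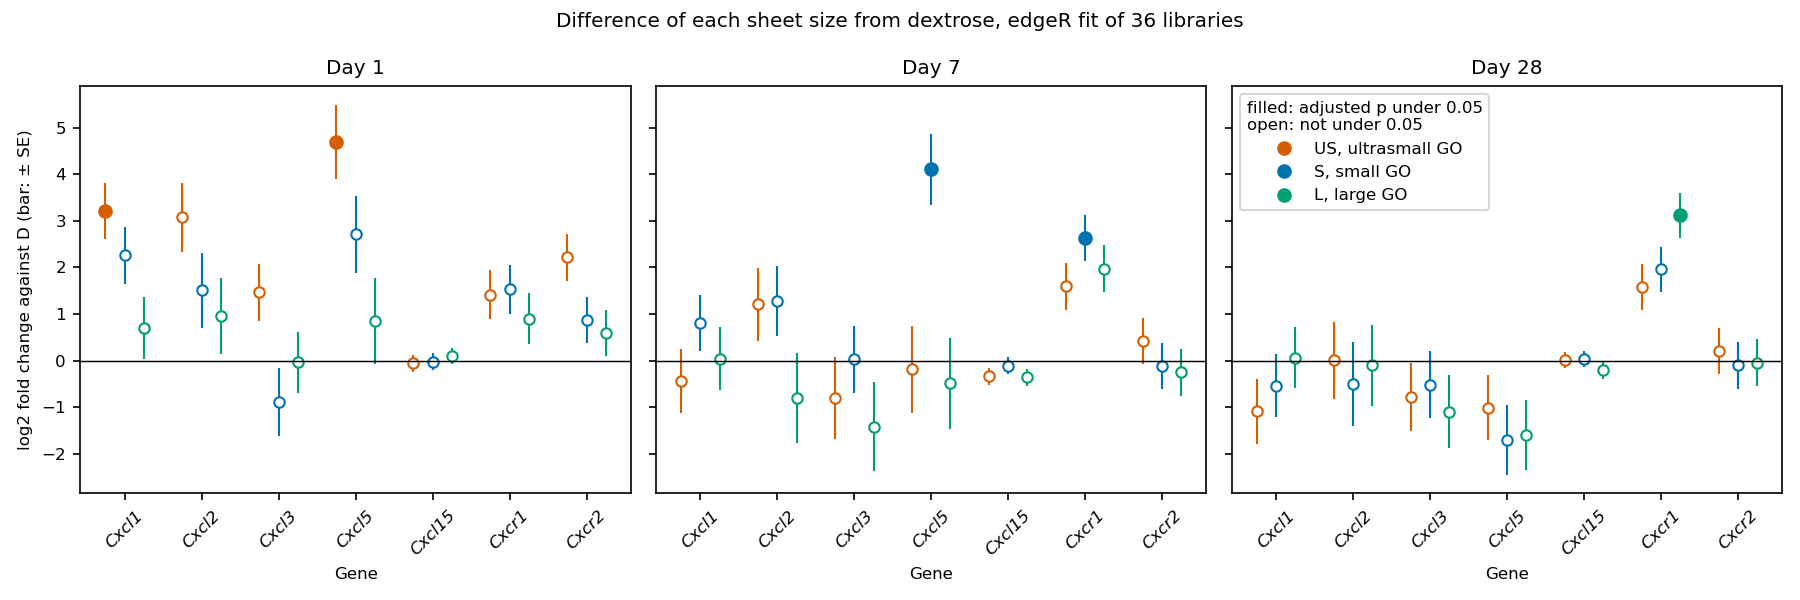
Fitted log2 fold change against D of the same day (points, bars ± SE) for the 7 genes, by sheet size, in 3 panels for days 1, 7 and 28. Filled points passed the threshold: Cxcl1 and Cxcl5 in US at day 1, Cxcl5 and Cxcr1 in S at day 7, and Cxcr1 in L at day 28; all 9 differences of Cxcr1 were above 0.

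At day 7 no ligand passed in US, and Cxcl5 was high in S. Cxcl5 had 0.637, 0.807 and 0.658 CPM in the D libraries, 0.183, 0.629 and 1.07 CPM in US, 2.98, 16.7 and 17.5 CPM in S, and 0.507, 0.420 and 0.589 CPM in L. The S libraries lay above all other libraries of that day, and the log2 difference from D was 4.10 ± 0.76, called in edgeR and also one of the values that chose the family. The call was lost without D replicate 1 or 2 or without S replicate 2 or 3, over a range of 3.79 to 4.56. Cxcl5 in S was also called against US (4.30 ± 0.77) and L against S (-4.59 ± 0.80), comparisons that use the same S libraries and in which 0.142% and 0.154% of all tested genes were called. The first of these calls was lost without US replicate 1, and the second without L replicate 1 or 2.

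None of the other ligands passed against D at day 7. Cxcl1 stood at 0.579, 0.914 and 0.506 CPM in D and at 0.975, 1.07 and 1.62 CPM in S, where all 3 libraries lay just above D and the difference of 0.81 ± 0.61 did not pass (edgeR adjusted p = 0.736). Cxcl2 had log2 differences of 1.20 ± 0.79 in US and 1.27 ± 0.76 in S, with edgeR adjusted p-values of 0.33 and 0.643. Cxcl3 rested on 0 to 40 counts in the libraries of that day, and its 0 counts in L replicate 3 allow up to 3 counts (counting error only). Cxcl15 stayed between 1690 and 2838 CPM in the 12 libraries of day 7.

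Cxcr1 rose in S at day 7 while Cxcr2 did not pass. Cxcr1 had 0.984, 1.08 and 1.52 CPM in the D libraries, 3.34, 1.95 and 5.69 CPM in US, 8.62, 5.75 and 9.02 CPM in S, and 5.88, 4.15 and 4.23 CPM in L. Every exposed library, of all 3 sizes, lay above all 3 D libraries, as was the case for 9.79% of all tested genes in US, 11.1% in S and 4.99% in L. The log2 difference from D was 2.63 ± 0.49 in S (edgeR adjusted p = 0.0103), 1.97 ± 0.50 in L (edgeR adjusted p = 0.169) and 1.60 ± 0.50 in US (edgeR adjusted p = 0.0694). With Cxcl5, that made 2 of 7 members called in S, where 0.45% of all tested genes were. The value of Cxcl5 there helped to choose the family, so nothing is read from that count. No member passed in edgeR in US (0 of 7, 1 at an unadjusted p under 0.05) or in L (0 of 7, 1 at an unadjusted p under 0.05), where 2.09% and 0.154% did. DESeq2 called 1 member, Cxcr1, in each of these. In all it called 1199 genes in US and 49 in L. An unadjusted p under 0.05 was found for 4352 and 824 of the tested genes.

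Marker lists of other cell types had medians away from 0 in S at day 7. There 1577 of all tested genes had an unadjusted p under 0.05, and DESeq2 called 166 genes. Of 8 ciliated cell markers all were above 0, with a median of 0.55, and 0 passed in edgeR (6 at an unadjusted p under 0.05, 2 with DESeq2). Of 6 tested fat markers none was above 0, with a median of -1.32 (0 passed in edgeR, 3 at an unadjusted p under 0.05, 0 with DESeq2). Of 11 alveolar macrophage markers 0 passed in edgeR, with 8 at an unadjusted p under 0.05, 1 with DESeq2 and a median of 0.14. The shifts of the ciliated and fat lists were not particular to S. In L at day 7 their medians were 0.29 and -1.39, and in US 3 and 1 of these markers passed in edgeR. All sizes share the D libraries of day 7, which themselves stood apart. Fat markers summed to 27.5 to 51.1 CPM there, against 14.2 to 20.1 CPM in D at days 1 and 28. Ciliated markers summed to 885 to 1392 CPM there, against 1451 to 1670 CPM in D at days 1 and 28. The part of all these lists in the Cxcr1 result was not tested.

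The call of Cxcr1 in S was lost without D replicate 1 or 2 or without S replicate 3, with edgeR adjusted p-values of up to 0.123 and differences of 2.51 to 2.84 over the 6 fits. In US it was gained without D replicate 3 or US replicate 2, with edgeR adjusted p-values of 0.0467 and 0.0197.

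Cxcr2, in the same libraries of day 7, stood at 6.89, 8.55 and 13.3 CPM in D and at 7.80, 8.76 and 10.96 CPM in S. These groups overlapped, and the difference was -0.11 ± 0.50 (edgeR adjusted p = 0.967). In US it had 20.2, 9.78 and 9.23 CPM and in L 7.20, 11.03 and 6.21 CPM, with differences of 0.42 ± 0.50 and -0.25 ± 0.51.

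At day 28 Cxcr1 was highest in L. It stood at 1.42, 0.684 and 2.08 CPM in the D libraries, 4.97, 5.59 and 2.02 CPM in US, 5.80, 3.56 and 7.28 CPM in S, and 10.8, 8.43 and 18.5 CPM in L. All L and S libraries lay above D, as did those of 16.5% and 12.0% of all tested genes, and US replicate 3 lay within the D range. The difference from D was 3.12 ± 0.48 in L, 8.71-fold (edgeR adjusted p = 0.000296), and Cxcr1 passed in each of the 6 fits that left out 1 library, with differences of 2.75 to 3.54 and edgeR adjusted p-values of up to 0.00596. In S it was 1.96 ± 0.49 (edgeR adjusted p = 0.0885), and in US 1.58 ± 0.49 (edgeR adjusted p = 0.475). One of 7 members was thus called in L, where 2.15% of all tested genes were. None was in S (0 of 7 in edgeR, 2 at an unadjusted p under 0.05, and Cxcr1 with DESeq2) or in US (0 of 7 in edgeR, 1 at an unadjusted p under 0.05, 0 of 7 with DESeq2), where 0.237% and 0.0237% were. In L, S and US, DESeq2 called 525, 148 and 29 genes. Of all tested genes 2829, 1668 and 1018 had an unadjusted p under 0.05.

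The difference of Cxcr1 between L and US at day 28 was 1.54 ± 0.43 (edgeR adjusted p = 0.109), and between L and S it was 1.16 ± 0.43 (edgeR adjusted p = 0.962), so neither passed and the higher level in L than in the other sizes was not shown. Among all tested genes 0.515% and 0.0651% were called in these 2 comparisons. DESeq2 called 184 genes in the first, Cxcr1 among them (DESeq2 adjusted p = 0.0489), and 37 genes but no member in the second.

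Cxcr2 did not pass at day 28. It stood at 8.59, 7.63 and 14.6 CPM in D and at 13.2, 7.57 and 9.67 CPM in L, which overlapped, with a difference of -0.05 ± 0.50 (edgeR adjusted p = 0.969). Its differences in US and S were 0.21 ± 0.49 and -0.10 ± 0.50.

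**Figure D3:**
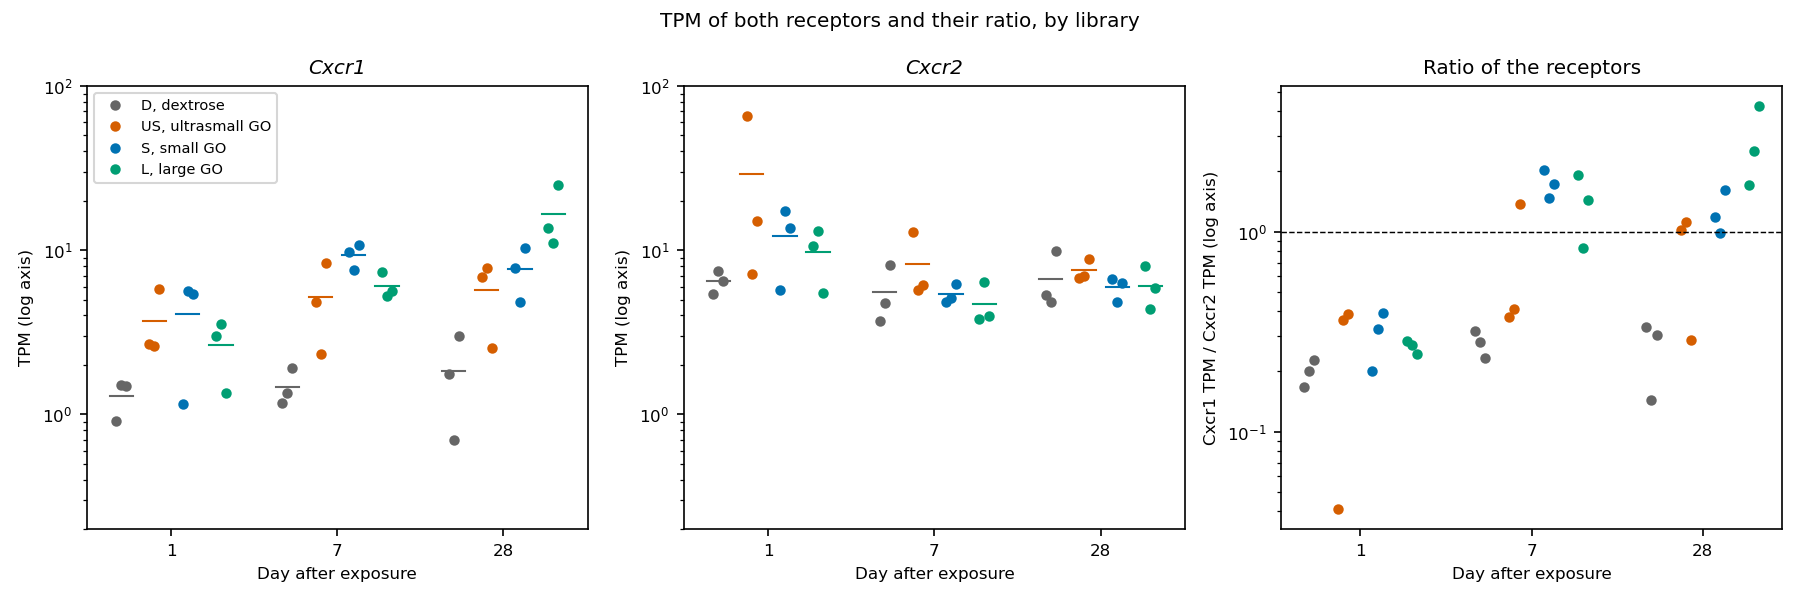
TPM (log axis) of Cxcr1 and of Cxcr2, and the ratio of the first to the second, in each library by day and material, with lines at the group means. The ratio was at most 0.332 in the 9 D libraries and above the dashed line at 1 in 13 of the 36 libraries, all of them exposed and from days 7 and 28.

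Because TPM is scaled by length, the receptors can be set against each other. The ratio of Cxcr1 to Cxcr2 in TPM lay between 0.144 and 0.332 in the 9 D libraries of all days. At day 1 it was at most 0.394 in the exposed libraries and fell to 0.041 in US replicate 1, where Cxcr2 was at its highest. It ran from 1.47 to 2.03 in S at day 7 and from 1.70 to 4.23 in L at day 28, so that in these 2 groups Cxcr1 exceeded Cxcr2 in all 3 libraries. In L at day 7 the range was 0.827 to 1.92, in US at day 7 0.373 to 1.37, in S at day 28 0.988 to 1.62 and in US at day 28 0.287 to 1.12.

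The summed level of neutrophil markers overlapped between D and the groups in which Cxcr1 passed in edgeR. Over 18 genes, without the receptors themselves and none of them at 0 in any group, it was 337.0 to 461.6 CPM in D and 413.3 to 583.3 CPM in L at day 28. At day 7 it was 467.7 to 552.1 CPM in D and 436.8 to 576.2 CPM in S. In S at day 28, where Cxcr1 lay above D but did not pass, the sum was 474.6 to 485.2 CPM, above all D libraries. In US at day 28 and in US and L at day 7 it overlapped with D. Of the 17 markers that were tested, 1 passed in L at day 28 in edgeR, where 2.15% of all tested genes did. It was Clec4d, a lectin receptor of myeloid cells (1.88 ± 0.45, edgeR adjusted p = 0.0205). There 13 of the 17 were above 0, 4 had an unadjusted p under 0.05 and DESeq2 called 1. In S at day 7, 7 of the 17 were above 0 and 0 passed in edgeR (3 at an unadjusted p under 0.05, 0 with DESeq2). The median log2 difference of the 17 was 0.30 in L at day 28 and -0.13 in S at day 7, against 0.00 and -0.01 over all tested genes. Of 11 alveolar macrophage markers, 1 rose in L at day 28, the integrin gene Itgax (0.99 ± 0.18, edgeR adjusted p = 0.00173). Their summed level was 1488 to 2153 CPM there and 1670 to 1710 CPM in D. In S and US at day 28 that sum was 2268 to 2663 CPM and 2104 to 2334 CPM, above all D libraries. In edgeR 0 of the 11 passed in either, with 5 in S and 0 in US at an unadjusted p under 0.05. The call of Clec4d was lost in 5 of the 6 fits that left out 1 library (all but the one without L replicate 2), and that of Itgax in 0 of 6. All 6 B cell markers were above 0 in L at day 28, with a median of 0.68 and summed levels of 324.8 to 390.7 CPM, against 188.3 to 274.2 CPM in D without overlap. None of them passed in edgeR, 4 had an unadjusted p under 0.05 and DESeq2 called 1. The summed level of the fat markers was lower, at 12.56 to 13.86 CPM against 15.02 to 20.13 CPM in D, and 0 of the 6 tested passed in edgeR (1 at an unadjusted p under 0.05, 0 with DESeq2). The part of these lists in the Cxcr1 result was not tested.

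**Figure D4:**
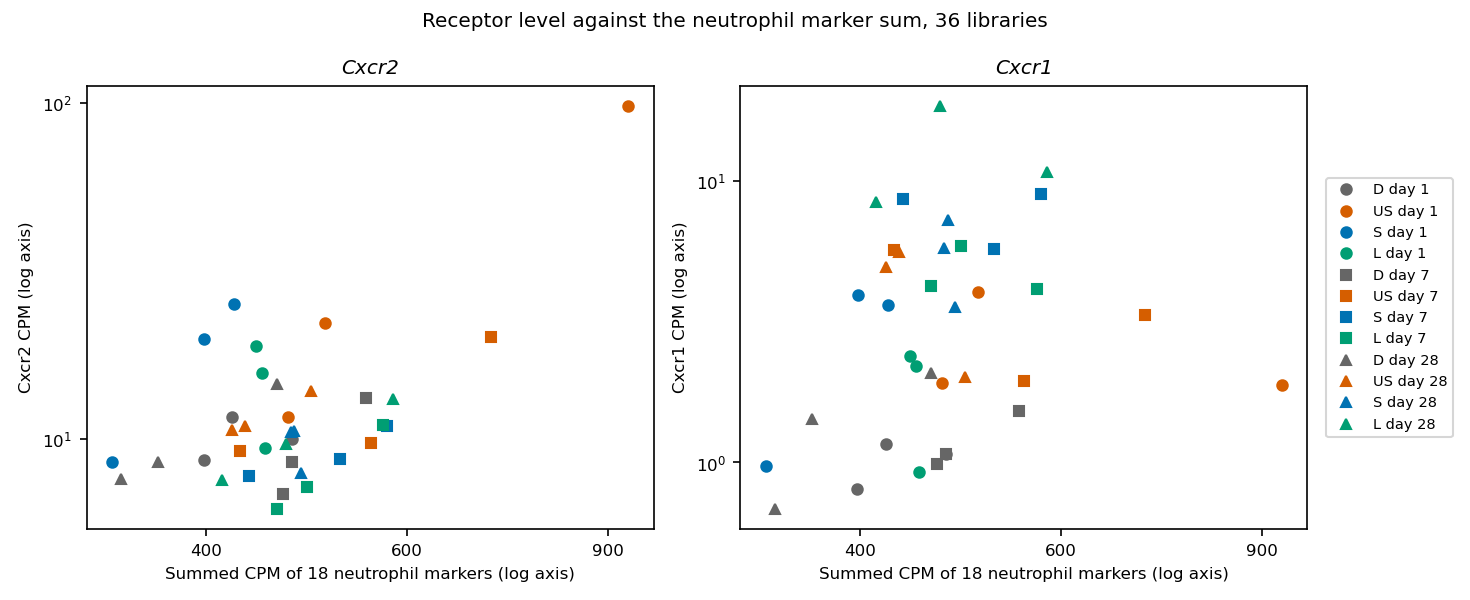
CPM of Cxcr2 (left) and of Cxcr1 (right) against the summed CPM of 18 neutrophil markers, both axes logarithmic, 1 point per library, coloured by material and shaped by day. US day 1 replicate 1 lies alone at a sum of 937.3 CPM with the highest Cxcr2, whereas the L libraries of day 28, highest in Cxcr1, lie at sums of 413.3 to 583.3 CPM.

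The genes whose levels over the 36 libraries were most like each receptor's also differed. For Cxcr2 they were Csf3r, the receptor of the growth factor that releases neutrophils from marrow (Pearson r = 0.92), Cd101 (0.91), Il1r2, a decoy receptor for interleukin 1 (0.91), Trem1 (0.90) and Ccr1 (0.89). For Cxcr1 they were Stra6l (0.86), the chemokine gene Ccl6 (0.85), the lysosomal protease gene Ctsd (0.84), B3gnt7 (0.84) and Cd84 (0.83). For Cxcl5 the closest were Ccl20, an epithelial chemokine (0.91), and Pigr, which carries immunoglobulins across epithelium (0.82), and for Cxcl1 it was Lcn2, an iron-sequestering protein of epithelium and neutrophils (0.88). Spearman's rho was 0.67 to 0.87 for the genes listed for Cxcr2, lowest for Trem1, and 0.84 to 0.86 for those of Cxcr1. It was 0.82 and 0.74 for Ccl20 and Pigr with Cxcl5, and 0.65 for Lcn2 with Cxcl1. The Pearson correlations of log2 CPM were ranked over 14713 genes. All are given as a description, since libraries of a group share their treatment and day.

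Across the 36 libraries, the levels of the 4 inducible ligands had a Pearson r of 0.55 to 0.69 in their 6 pairs, and these too are descriptions without a test. For Cxcl1 and Cxcl2, r was 0.67 and Spearman's rho was 0.47. It was 0.63 for deviations from the group means and 0.47 without the 2 libraries farthest from the median of Cxcl1, US day 1 replicates 1 and 3. For Cxcl1 and Cxcl3 it dropped from 0.58 to 0.33 and for Cxcl2 and Cxcl3 from 0.55 to 0.32 without the same libraries, so the size of r rests in part on them. Spearman's rho of these pairs was 0.47 and 0.44 over all 36 libraries. For deviations from the group means their r was 0.62 and 0.53. For Cxcr1 and Cxcr2, r was -0.02 and rho 0.02 over the 36 libraries, r was -0.04 without the 2 farthest libraries, and for deviations from the group means r was 0.32.

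At day 28 Cxcl5 was lower in all 3 exposed groups than in D. It stood at 2.68, 2.45 and 4.59 CPM in the D libraries, against 1.77, 0.651 and 2.35 CPM in US, 0.815, 1.21 and 0.982 CPM in S, and 1.04, 1.03 and 1.21 CPM in L. Every exposed library lay below every D library, as was the case for 9.03% of all tested genes in US, 10.7% in S and 14.4% in L. The differences of -1.02 ± 0.70, -1.71 ± 0.75 and -1.60 ± 0.75 did not pass (edgeR adjusted p = 0.916, 0.439 and 0.276). These 3 comparisons share the D libraries of day 28, and those were themselves above the D libraries of days 1 and 7, all at or below 0.867 CPM. The difference of Cxcl5 in D between days 28 and 1 was 2.54 ± 0.83 (edgeR adjusted p = 0.47). No member passed in D over time (0 of 7 in edgeR at day 7 against day 1, with 0 at an unadjusted p under 0.05, and 0 of 7 at day 28, with 1), where 0% and 0.0769% of all tested genes did. DESeq2 called 0 members in each, of the 5 and 7 it gave an adjusted p, and 60 and 28 genes in all. Of the tested genes 4085 and 912 had an unadjusted p under 0.05.

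Cxcl1, Cxcl2, Cxcl3 and Cxcl15 did not pass against D at day 28 in any size. Cxcl1 in US, at 0.287, 0.347 and 0.420 CPM, lay below the D libraries (0.602 to 0.855 CPM), with a difference of -1.09 ± 0.70 (edgeR adjusted p = 0.901). Cxcl15 in L, at 1972, 1945 and 2124 CPM, lay just below the D range of 2176 to 2405 CPM (-0.21 ± 0.18, edgeR adjusted p = 0.554).

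Direct tests between times compared each size's difference from D at a later day with that at day 1. For Cxcl5 in US the change from day 1 to day 28 was -5.72 ± 1.06 and was called, and it uses the day 1 values that chose the family. The call was lost in 9 of the 12 fits that left out 1 library. For Cxcl1 in US it was -4.30 ± 0.93, and the changes by day 7 were -4.89 ± 1.26 for Cxcl5 and -3.65 ± 0.92 for Cxcl1, none of them called. In US 0 of 7 members were called at day 7 and 1 of 7 at day 28, where 0.136% and 0.0473% of all tested genes were. In S the change of Cxcl5 by day 28 was -4.42 ± 1.12 (not called), and no member was called at day 7 or 28 in S (0% and 0.195% of all tested genes) or in L (0% and 0.243%). At an unadjusted p under 0.05 there were 0 and 2 members in S and 0 and 2 in L, and DESeq2 called 0 in each, though it gave an adjusted p to only 2 members in S at day 28. In US it called 2 members at each day, Cxcl1 and Cxcl5, among 207 and 70 genes. The day 1 values of both chose the family, so nothing is read from these calls. Over all tested genes, 1654 and 3566 in S and 563 and 2107 in L had an unadjusted p under 0.05. For Cxcr1 the change from day 1 to day 28 was 2.23 ± 0.74 in L (edgeR adjusted p = 0.243), 0.43 ± 0.73 in S and 0.16 ± 0.74 in US, so a growing difference with time was not shown in any size.

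Between sizes at day 1, the log2 difference of Cxcl5 was -3.85 ± 0.73 for L against US and -1.99 ± 0.64 for S against US, neither called. Cxcl3 differed by -2.35 ± 0.66 between S and US (edgeR adjusted p = 0.139), and Cxcr2 by -1.63 ± 0.48 between L and US (edgeR adjusted p = 0.431). No member was called in edgeR between any 2 sizes at day 1, where 0.0177% of all tested genes (S against US), 0% (L against US) and 0% (L against S) were. At an unadjusted p under 0.05 there were 4, 5 and 2 members, and DESeq2 called 0 of the 5 it gave an adjusted p, 2 of 7 (Cxcl1 and Cxcl5 for L against US) and 0 of 7. Apart from the 2 calls of Cxcl5 at day 7 there was none at day 7 between L and US (0.00592% of all tested genes) and none at day 28 between S and US (0%), with 1 and 0 members at an unadjusted p under 0.05 and 0 called by DESeq2. There 2534 and 920 of all tested genes had such a p, and DESeq2 called 3 and 5 genes.

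The genes around the family were described from lists chosen with earlier results known. Of 10 cytokines that induce these chemokines, 7 were tested. In S at day 7, 1 of them rose, Tnf, a macrophage cytokine that activates NF-kB (2.54 ± 0.46, edgeR adjusted p = 0.0103), and none fell, where 0.45% of all tested genes were called. The call of Tnf was lost without D replicate 1 or without S replicate 2 or 3. In US at day 1 none of the 7 passed in edgeR, with 5 at an unadjusted p under 0.05 and 2 called by DESeq2. In edgeR, Il6 differed by 2.72 ± 0.90 (edgeR adjusted p = 0.141) and Tnf by 1.39 ± 0.46 (edgeR adjusted p = 0.139). Il1b was 2.45-fold higher (edgeR adjusted p = 0.076). Il6, Tnf and Il1b did not pass there and were named for this comparison after their values were seen. The median of the 7 was 0.73 in US at day 1 and 0.32 in S at day 7, against 0.01 and -0.01 over all tested genes. Without US replicate 1 the median at day 1 was 0.70, with 0 of 7 called, and without US replicate 2 it was 0.95, with 2 called. In S at day 1 the summed level of the list was 163.5 CPM in replicate 1, within the D range of 132.2 to 166.3 CPM, and 432.9 and 521.4 CPM in the other two. The median was 0.59, and 0 of 7 passed in edgeR (3 at an unadjusted p under 0.05, 1 called by DESeq2, which gave 2 of them an adjusted p). Without S replicate 1 it was 0.99, and 3 of 7 passed.

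Of 16 NF-kB subunits and feedback inhibitors, 0 passed in edgeR in any of the 9 comparisons with D. Over the 144 tests that makes, 18 had an unadjusted p under 0.05 and DESeq2 called 7. Their median log2 difference was 0.42 in US at day 1, where 15 of 16 were above 0, and 0.06 in S at day 7. Without US replicate 1 the median at day 1 was 0.17 and none passed, while without US replicate 2 it was 0.51 and 7 of 16 passed. In the change of the US effect from day 1 to day 7, where 0.136% of all tested genes were called, 2 of the 16 fell: Bcl3, an atypical IkappaB protein (-1.61 ± 0.34, edgeR adjusted p = 0.045), and Nfkb2, which encodes the p100 precursor (-0.80 ± 0.17, edgeR adjusted p = 0.045). These calls were lost in 8 and 9 of the 12 fits that left out 1 library, those without US day 1 replicate 1 included.

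Of 12 receptors and adaptors of interleukin 1, interleukin 17 and TNF, 1 rose in US at day 1, the decoy receptor gene Il1r2 (4.35 ± 0.85, edgeR adjusted p = 0.0351), where 0.0887% of all tested genes were called. It also stood on the neutrophil list, of whose 17 tested genes it alone passed in edgeR, while 10 had an unadjusted p under 0.05, DESeq2 called 6 and the median was 1.06. Without US replicate 1 the difference of Il1r2 was 1.47 ± 0.60 (edgeR adjusted p = 0.602) and the median of the neutrophil list 0.38, with 0 called. Without US replicate 2 that median was 1.39, with 8 of 17 called. The call of Il1r2 was also lost without D replicate 1, 2 or 3. Of 14 genes of receptor signalling, Rgs2, which shortens G protein signals, rose in L at day 1 (1.03 ± 0.17, edgeR adjusted p = 0.00713) and at day 28 (0.76 ± 0.17, edgeR adjusted p = 0.0099), where 0.0237% and 2.15% of all tested genes were called. The first call was lost without L replicate 3 (0.99 ± 0.18, edgeR adjusted p = 0.0541) and without D replicate 1, 2 or 3, and the second without D replicate 2. Pik3r5, a regulatory subunit of the kinase downstream of these receptors, rose in L at day 28 (0.50 ± 0.13, edgeR adjusted p = 0.0374), a call lost in 4 of 6 fits, those without D replicate 1 or 2 or L replicate 1 or 3.

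Few other CXC genes passed. Of 9 tested CXC chemokines outside the 7 members, among them the neighbours Ppbp and Pf4, 0 passed in edgeR in any of the 9 comparisons with D. Of these 81 tests, 9 had an unadjusted p under 0.05 and DESeq2 called 2. Between sizes, 1 of the 9, the interferon-induced chemokine gene Cxcl9, was lower in L than in US at day 28 (-4.09 ± 0.91, edgeR adjusted p = 0.0261), where 0.515% of all tested genes were called. Without US replicate 3 the difference was -0.22 ± 0.61 (edgeR adjusted p = 0.933), and the call was also lost without L replicate 1, 2 or 3. Of 7 other CXC and decoy receptors, 1 fell in L at day 28, where 2.15% of all tested genes were called. It was Cxcr6, a receptor of T cells and natural killer cells (-1.30 ± 0.35, edgeR adjusted p = 0.0481). Without D replicate 3 its difference was -0.29 ± 0.27 (edgeR adjusted p = 0.629), and the call was also lost without L replicate 1, 2 or 3. The summed level of 10 T and natural killer cell markers was 173.2 to 189.8 CPM in L and 144.7 to 180.4 CPM in D at that day. Across all comparisons with D in the edgeR fit of all libraries, Cxcl2, Cxcl3, Cxcl15 and Cxcr2 were never called. The calls of Cxcl1 and Cxcl5 were in the comparisons that chose the family, so nothing is read from them. Cxcr1 was called in S at day 7 and in L at day 28, where 0.45% and 2.15% of all tested genes were.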

How the data were processed

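Counts per Ensembl gene (46078 genes, 36 libraries) were used as the authors deposited them. The submitters' processing notes list STAR 2.5.1b, featureCounts 1.5.1 and StringTie 1.3.3 without roles, and the build GRCm38. The sources used here do not give the annotation release or strand setting. TPM values in the deposited tables served for levels between genes and as an alternative. FPKM and coverage (a read signal), which those tables also hold per the file headers, were not used. Material marked MWCNT was not analysed here.

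One edgeR 4.0.16 quasi-likelihood fit (R 4.3.3) of all 36 libraries, with 12 group means, TMM scaling and filterByExpr (16903 genes), gave two-sided tests adjusted by Benjamini-Hochberg over all genes at a threshold of 0.05. A called gene passed it. Log2 CPM for relations had a prior count of 2. The script was tested on simulated data. Every member is named, and from other lists up to 3 called genes. Il6, Tnf and Il1b in US at day 1 were not called in edgeR and were named after their values were seen. Members, lists and tests were chosen with earlier results of these data known.

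Alternatives were RLE factors, no filter, a replicate block, DESeq2 1.42.0, only the groups compared, limma 3.58.1 on log2(TPM + 1) or log2(TPM + 0.1), and leaving out each library. Libraries of a group differed beyond sampling noise (chi-square per degree of freedom of at least 6.16), so none was a repeat sequencing of another. Whether libraries of a group came from the same animal cannot be told from this.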

Additional observations from a re-analysis of the deposited data

Results flagged for a closer look

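Cxcl5 is listed because its difference between US and D was not the same at days 1 and 28: the change was -5.72 on the log2 scale by the interaction test in edgeR. It rests on the day 1 libraries that chose the gene, so it is a description. D at day 28, at 2.45 to 4.59 CPM, was also above D at day 1, at 0.246 to 0.867 CPM, and its part in the change was not tested. Groups of 3 libraries are too small for the check for single outlying libraries.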

How the results depend on the processing

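No difference of the 7 genes that passed, in the fit of all libraries or in an alternative run, had the opposite sign in the other, and no relation with an r above 0.5 turned its sign. With all libraries, the number of members called in US against D at day 1 (2 of 7) became 4 without a filter and with DESeq2, 1 with limma on log2(TPM + 1), with or without its filter, and in a fit of only the groups compared, and 0 with log2(TPM + 0.1). S against D at day 7 (2) became 1 with log2(TPM + 0.1). L against D at day 28 (1) became 2 in the fit of only the groups compared. Where 0 were called, 1 was in US at day 7 with DESeq2, in L at day 7 without a filter, with DESeq2 and in the fit of only the groups compared, and in S at day 28 without a filter and with DESeq2. Likewise L against US gave 1 without a filter and 2 with DESeq2 at day 1, and 1 with each at day 28. The single call of S against US at day 7 became 0 with log2(TPM + 0.1) and in the fit of only the groups compared, and that of L against S became 0 with log2(TPM + 0.1). For the change in US, day 7 gave 2 without a filter and with DESeq2 in place of 0, and day 28 gave 2 with both and 0 with every limma fit in place of 1. For the change in S by day 28, 1 was called without a filter and 2 in the fit of only the groups compared, and for D at day 28 against day 1 that fit called 1. Leaving out 1 library at a time gave 0 to 4 members in US and 0 to 3 in S at day 1, 0 to 1 in US and 0 to 2 in S at day 7, 0 to 2 for L against US at day 1, 0 to 1 for both called pairs at day 7, 0 to 1 and 0 to 2 for the changes in US by days 7 and 28, and 0 to 2 for that in S by day 28. The cause of these differences was not tested. With the replicate block, the count was the same as without it in all 26 comparisons, such as 2 in US at day 1. Libraries with the same number share only that number: correlations of their deviations ran from -0.238 to 0.371, with every one above 0.1 in 0 of 9 comparisons. Depth limits Cxcl1, Cxcl2 and Cxcl3 most, since 3 counts equal 0.186 CPM in the shallowest library. Some levels of Cxcl2, Cxcl3 and Cxcl5 rest on fewer than 3 counts, and the lowest of Cxcl1 rests on 3. Cxcl5 had only 14, 4 and 11 counts in the D libraries of day 1.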
